A study of Homo sapiens with 24 samples.

Results

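The genes described here encode the respiratory chain subunits that mitochondrial DNA carries and the nuclear-encoded NDUF subunits of complex I, in SK-MES1 cells with and without TGFβ. Members were all protein-coding genes with the symbols MT-ND, MT-CO, MT-ATP or MT-CYB, and all whose symbol begins with NDUFA, NDUFB, NDUFC, NDUFS or NDUFV followed by a number. Transcript values were summed per gene. This gave 52 genes, 13 mitochondrial-encoded and 39 nuclear, and all 52 were among the 17413 genes with enough counts to test. SK-MES1 is an established squamous lung carcinoma line. The dishes were serum-starved for 3 h and then given 2 ng/ml TGFβ1 or left untreated, and RNA was taken at 0, 8, 24 and 48 h with 3 biological replicates in each of 8 groups, 24 libraries in all. Both arms were starved. The libraries labelled TGFβ-treated at 0 h are the start of the treated arm, and they are compared with the untreated 0 h libraries like every other time point. A single line was used, so the replicates measure the spread between cultures of that line.

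Complex I is the NADH dehydrogenase of the inner mitochondrial membrane. It passes electrons from NADH to ubiquinone and pumps protons, and it is built from subunits of both genomes: the 7 MT-ND proteins form the core of its membrane arm, while the nuclear NDUF genes supply the NADH-oxidising and ubiquinone-reducing matrix arm and a large set of accessory subunits. The other mitochondrial-encoded members are the 3 core MT-CO subunits of cytochrome c oxidase (complex IV), MT-CYB of complex III, and the 2 MT-ATP subunits of ATP synthase. Mitochondrial genes are transcribed inside the organelle as long polycistronic RNAs that are cut at the tRNAs, whereas each NDUF gene has its own nuclear promoter.

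This genome layout bears on how reads can be assigned. On GRCh38 chrM, MT-ATP8 (chrM:8366-8572) and MT-ATP6 (chrM:8527-9207) share 46 bases in different reading frames, and MT-ND4L (chrM:10470-10766) and MT-ND4 (chrM:10760-12137) share 7 bases. MT-ND5 (chrM:12337-14148) ends beside the end of MT-ND6 (chrM:14149-14673), which is read from the opposite strand. The overlaps are shown because reads inside the shared bases fit both genes, and the junction because the genes abut there without sharing a base. Capitals mark the shared bases in the MT-ATP and MT-ND4 stretches and the last codon of MT-ND5 in the other, which covers chrM:14129-14168. All are written from the plus strand of GRCh38, with 20 bases on each side of the shared bases or of the junction.
MT-ATP8 and MT-ATP6: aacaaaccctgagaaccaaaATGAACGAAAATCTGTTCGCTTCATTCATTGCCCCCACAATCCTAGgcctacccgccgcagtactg
MT-ND4L and MT-ND4: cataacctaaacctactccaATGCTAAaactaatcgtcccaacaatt
MT-ND5 and MT-ND6: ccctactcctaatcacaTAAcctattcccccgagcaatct
Whether the libraries kept strand is not given in the sources used here, so MT-ND6 reads cannot be told apart from reads of the opposite strand of the same region. The log2 ratio of MT-ND6 to MT-ND5 TPM lay between 0.13 and 0.46 over the 24 libraries, with a mean of 0.20 at 0 h and 0.43 at 48 h in untreated cells and of 0.25 and 0.33 in treated cells.

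The libraries held 46613589 to 77964234 estimated counts, with a median of 54120879. The smallest count of any mitochondrial-encoded gene in any library was 13899 (MT-ND6). Epithelial markers KRT8, KRT18 and KRT19 had median levels of 470, 506 and 411 TPM, EPCAM 27.3 TPM and CDH1 only 2.49 TPM. The squamous keratins KRT5, KRT14 and KRT6A had medians of 0, 0.0080 and 0 TPM, at or near 0, as did the squamous marker DSG3 at 0.0096 TPM. The squamous markers TP63, KRT17 and SOX2 had medians of 22.1, 3.20 and 2.06 TPM. Among markers of other cell types, the 6 leukocyte genes summed to at most 42.8 TPM, most of it CD68, with CD3E at 0 in every library, and the 4 endothelial genes to 0.928 to 4.82 TPM. With time the epithelial sum rose, from 1160 to 1381 TPM at 0 h to 2058 to 2289 TPM at 48 h over both arms, and the leukocyte sum fell, from 31.0 to 42.8 TPM to at most 14.2 TPM. The sum of the 7 fibroblast genes was 193 to 318 TPM in all groups but the treated ones at 8, 24 and 48 h, where it reached 789 to 2409 TPM, most of it COL1A1. DCN in the same list moved the other way, with a log2 difference of -3.30 at 48 h, and COL1A2 had at most 0.22 TPM in any library. The part of these marker changes in the results below was not tested.

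Among the nuclear members, replicate 2 of the treated arm stood apart from its group at 0 h and at 24 h. NDUFA11 had 173 TPM in replicate 2 at 0 h against 275 and 249 TPM, and 154 TPM at 24 h against 229 TPM in both of the others. NDUFB5 moved the opposite way there, with 132 TPM at 24 h against 94.1 and 97.4 TPM. Untreated replicate 2 leaned the same way by less, with NDUFA11 at 188 TPM at 24 h against 233 and 240 TPM. Counts that change by more than 1.5 times without the pair of treated libraries are given beside the result. The file names also carry 1 code for each arm at 0 and 8 h and another for each arm at 24 and 48 h, so code and arm cannot be told apart. Within an arm, 8 h against 0 h and 48 h against 24 h lie inside 1 code. Changes from 0 or 8 h to 24 or 48 h cross codes, so time and code cannot be told apart there. The same holds for changes of the arm difference between those times.

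Summed over genes, the mitochondrial-encoded transcripts rose with time in both arms while the nuclear NDUF transcripts declined. In untreated cells the 13 mitochondrial-encoded genes summed to 88098, 87676 and 96440 TPM at 0 h and to 126216, 132872 and 132214 TPM at 48 h. In treated cells they summed to 98055, 100679 and 100238 TPM at 0 h and to 134297, 142580 and 133310 TPM at 48 h. No 48 h library of either arm overlapped its 0 h group. In bulk RNA, a change per cell and a change in the share of cells that carry a transcript cannot be told apart.

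The 39 nuclear genes summed to 6139, 5893 and 5991 TPM in untreated cells at 0 h and to 5187, 5175 and 5130 TPM at 48 h. In treated cells the sums were 6363, 5407 and 5787 TPM at 0 h and 4621, 4531 and 4602 TPM at 48 h. At 0 h the arms overlapped, and at 8, 24 and 48 h every treated library lay below every untreated one. The 8 h sums were 5795, 5756 and 5827 TPM without TGFβ and 5534, 5517 and 5513 TPM with it. TPM is a share of 1 library, so a rise of the abundant mitochondrial transcripts lowers all other TPM values a little. The median arm difference of all tested genes in log2(TPM + 1) was itself below 0, at -0.0491, -0.035 and -0.0255 at 8, 24 and 48 h. The 8 h separation of the sums thus cannot be read as a decrease of these genes alone, and no nuclear member was called at 8 h by limma voom. The tests therefore use scaling factors across all genes, and leaving the mitochondrial-encoded genes out of those factors changed no count of calls by more than 1.5 times.

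The ratio of the 2 sums in untreated cells was 15.1 ± 0.90 (SD, n = 3) at the start, 17.2 ± 0.97 after 8 h, 19.1 ± 0.89 after 24 h and 25.3 ± 0.81 after 48 h. In treated cells the successive values were 17.1 ± 1.6, 20.1 ± 1.1, 24.5 ± 1.4 and 29.8 ± 1.4. On the log2 scale the ratio rose by 0.74 over 48 h without TGFβ and by 0.80 with it. The treated arm stood higher by 0.18, 0.22, 0.36 and 0.24 at the successive times from 0 h, against a pooled SD between replicates of 0.085. The arms overlapped at 0 h and not afterwards. With the 0 h gap subtracted, the excess of the treated arm was 0.045, 0.18 and 0.062 at 8, 24 and 48 h. These values rest on single 0 h libraries: without the treated 0 h replicate 1 the 0 h gap was 0.25 and the excess was -0.03, 0.11 and -0.01, and without the treated 0 h replicate 2 the gap was 0.11 and the excess 0.11, 0.24 and 0.12. At 8 h the excess was also below 0, by less than 0.01, without replicate 3 of the untreated 0 h group or replicate 1 of the untreated 8 h group. No test was run on the ratio.

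**Figure D1:**
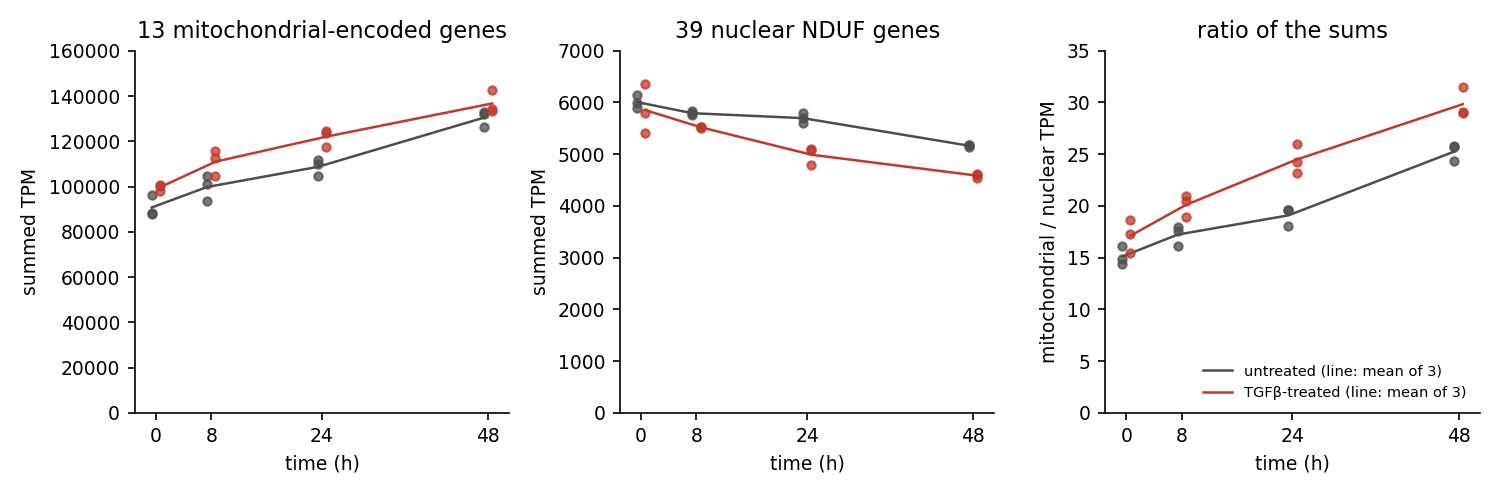
Summed TPM of the 13 mitochondrial-encoded genes (left) and of the 39 nuclear NDUF genes (middle), and the ratio of the sums (right), against time in hours. Points are single libraries and lines join the means of 3; the mitochondrial sum climbs to 126216 TPM or more at 48 h in both arms, while the nuclear sum falls to 4531 to 4621 TPM in treated cells and 5130 to 5187 TPM in untreated cells.

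Gene by gene, 11 of the 13 mitochondrial-encoded members rose from 0 to 48 h in untreated cells and 11 rose in treated cells, and none fell (limma voom across all genes, Benjamini-Hochberg adjusted p under 0.01). Of all tested genes, 28.1% rose and 27.1% fell over that interval in untreated cells, and 29.9% rose and 28.1% fell in treated cells. The median log2 change of the 13 genes was 0.36 without TGFβ and 0.30 with it, while over all tested genes it was 0.0084 and 0.016. Without the treated 0 h replicate 3 the treated-arm count was 7, and a fit on only the libraries of the contrast called 6.

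The rises were uneven across the mitochondrial genome. MT-CO1 (chrM:5904-7445), the catalytic subunit of cytochrome c oxidase that holds its haem centres, had 10661, 10733 and 12285 TPM in untreated cells at 0 h and 21604, 22634 and 22866 TPM at 48 h. In treated cells MT-CO1 had 12541, 12183 and 12672 TPM at 0 h and 21926, 22637 and 21372 TPM at 48 h. The log2 change was 0.90 ± 0.074 (SE; adjusted p = 8.2e-10) without TGFβ and 0.72 ± 0.074 (adjusted p = 2.5e-08) with it, the largest change of the 13 in each arm. MT-CO2 (chrM:7586-8269), the subunit that takes electrons from cytochrome c, was the most abundant member at a mean of 20660 TPM and rose by 0.66 ± 0.052 and 0.52 ± 0.052. MT-CO3, the remaining oxidase subunit of the mitochondrial genome, did not pass, with changes of 0.18 ± 0.075 (adjusted p = 0.039) and 0.15 ± 0.075 (adjusted p = 0.082).

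Among the complex I subunits, MT-ND2 was the other member that did not rise. Its untreated libraries held 4912, 4825 and 5164 TPM at 0 h and 5114, 5305 and 5267 TPM at 48 h, and its treated libraries 5474, 5742 and 5742 TPM at 0 h and 5416, 5931 and 5566 TPM at 48 h. The log2 changes were -0.02 ± 0.041 (adjusted p = 0.73) and -0.11 ± 0.041 (adjusted p = 0.028). Without the treated 48 h replicate 2 this treated-arm decrease was called. MT-ND1 rose by 0.39 ± 0.069 and 0.38 ± 0.068, MT-ND3 by 0.18 ± 0.051 and 0.19 ± 0.051, MT-ND4 by 0.29 ± 0.056 and 0.24 ± 0.055, and MT-ND4L by 0.36 ± 0.079 and 0.30 ± 0.079, in untreated and treated cells in that order.

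MT-ND6, the only member on the light strand, and MT-ND5, its neighbour, rose more in untreated than in treated cells. MT-ND6 changed by 0.73 ± 0.096 without TGFβ and by 0.32 ± 0.097 with it, and MT-ND5 by 0.49 ± 0.071 and 0.23 ± 0.072. Outside complex I, MT-CYB, the cytochrome b subunit of complex III, rose by 0.43 ± 0.055 and 0.51 ± 0.055. The ATP synthase members rose by 0.34 ± 0.065 and 0.34 ± 0.064 for MT-ATP6 and by 0.25 ± 0.080 and 0.26 ± 0.079 for MT-ATP8, which overlap by the bases printed above. None of the 13 had a change from 0 to 48 h that differed between the arms in the test of that difference by limma voom. At adjusted p under 0.01, 20.7% of all genes passed that test. At the looser threshold of an unadjusted p under 0.05 were 2 of the 13.

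**Figure D2:**
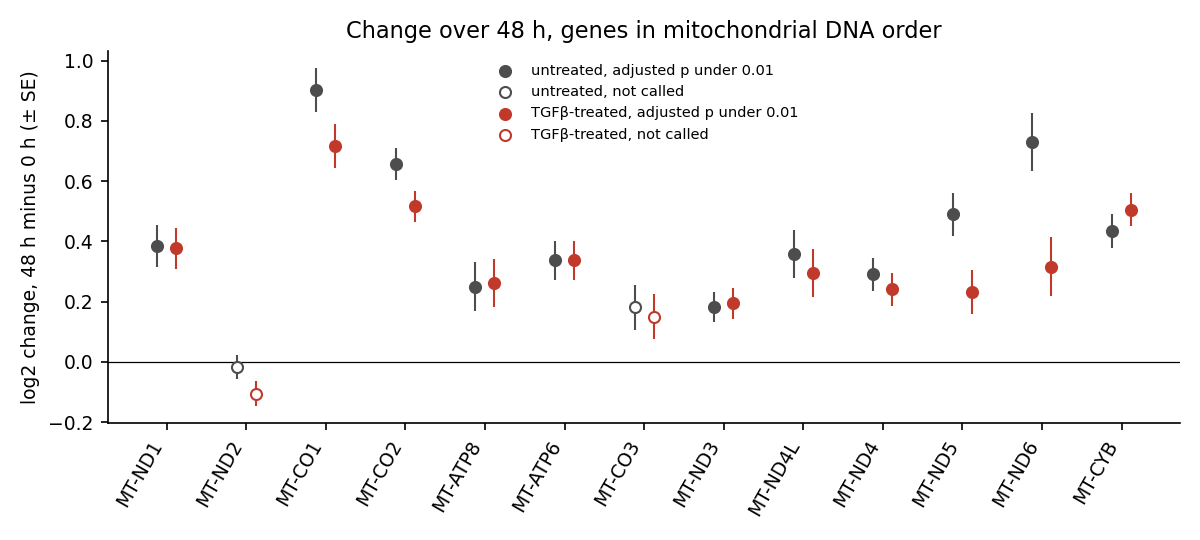
Log2 change from 0 to 48 h (vertical axis, with its SE) of the 13 mitochondrial-encoded genes in the order of the mitochondrial genome, for untreated and TGFβ-treated cells. Filled points passed adjusted p under 0.01; MT-CO1 lies highest in both arms at 0.90 and 0.72, and the open points are MT-ND2 and MT-CO3.

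The make-up of the mitochondrial-encoded pool, which does not depend on scaling to nuclear genes, shifted with time. MT-CO1 made up 12.4% ± 0.33 (SD, n = 3) of the summed mitochondrial-encoded TPM in untreated cells at 0 h and 17.2% ± 0.13 at 48 h. In treated cells its share went from 12.5% ± 0.36 to 16.1% ± 0.23. MT-ND2 went the other way, from 5.48% ± 0.11 to 4.01% ± 0.04 without TGFβ and from 5.67% ± 0.08 to 4.12% ± 0.08 with it, and for both genes the 0 h and 48 h libraries did not overlap in either arm. MT-CYB kept 2.54% of the pool in untreated cells at 0 and 48 h, and rose from 2.73% ± 0.06 to 3.03% ± 0.12 in treated cells.

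Neither arm had a called mitochondrial-encoded gene at 8 h against 0 h. At adjusted p under 0.01, 13.2% and 12.7% of all genes rose and fell in untreated cells, and 17.6% and 16.3% in treated cells. At the looser threshold of an unadjusted p under 0.05 by limma voom were 3 of 13 in untreated and 7 of 13 in treated cells. By 24 h, 7 had risen in each arm, led by MT-CO2 at 0.41 in untreated and MT-CO1 at 0.43 in treated cells (23.9% and 23.7% of all genes rose and fell without TGFβ, 24.3% and 22.8% with it). From 24 to 48 h, 4 rose further in each arm, which is a comparison inside 1 file-name code. MT-CO1 rose in that interval by 0.56 in untreated and by 0.29 in treated cells, and MT-ND6, which had a change of -0.06 from 0 to 24 h there, by 0.79 in untreated cells (14.8% and 13.7% of all genes rose and fell without TGFβ, 12.4% and 13.4% with it).

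Between the arms, most mitochondrial-encoded genes were higher in the TGFβ-treated libraries, but they were so from the start. In the F-test over 8, 24 and 48 h, 10 of 13 were called, all with a higher mean in treated cells (42.6% of all genes were called in either direction). With library totals in place of TMM factors 7 were called, 1 of them lower. At single time points 6 were higher at 8 h, 7 at 24 h and 4 at 48 h, and none was lower (9.14%, 15.5% and 16.2% of all genes were higher). The median log2 difference of the 13 was 0.22, 0.24 and 0.13 at 8, 24 and 48 h, against -0.016, -0.015 and -0.013 over all tested genes.

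At 0 h the same median was 0.22, and all 13 genes were higher in the treated arm. None was called at 0 h, nor was any other gene (0% of all genes), while 12 of the 13 had an unadjusted p under 0.05 by limma voom, as did 800 of all 17413 genes. When the 0 h difference was subtracted, no mitochondrial-encoded gene was called at 8, 24 or 48 h by limma voom, with 0, 1 and 2 genes at an unadjusted p under 0.05, and the F-test called 2, both lower. The percentages of all genes whose arm difference changed from its 0 h value at adjusted p under 0.01 were 7.91%, 16.6% and 20.7% at 8, 24 and 48 h. The higher level in the treated arm cannot be told apart from a difference between the arms at their start.

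MT-CYB was called higher with TGFβ at each time after 0 h, but the arms already stood apart at 0 h. The untreated 0 h libraries held 2282 to 2320 TPM and the treated ones 2616 to 2795 TPM. Its untreated libraries held 2242, 2529 and 2655 TPM at 8 h and 3206, 3340 and 3388 TPM at 48 h. The treated libraries held 2891, 3234 and 2995 TPM at 8 h and 4252, 4198 and 3979 TPM at 48 h, with no overlap at either time. The log2 difference was 0.28 and 0.36 at 0 and 8 h, and 0.21 ± 0.055 (SE) at 24 h. At 48 h it was 0.35 ± 0.054, the lowest adjusted p of the 13 genes at that time. MT-ATP6 was called at all 3 times after 0 h too, at 0.29, 0.29 and 0.26, and so was MT-ND4, at 0.33, 0.26 and 0.19. For both genes the arms also stood apart at 0 h. MT-ATP6 had 6827 to 7863 TPM in untreated and 8412 to 8491 TPM in treated cells there, and MT-ND4 7048 to 7721 and 8249 to 8678 TPM. As a change from 0 h their 48 h differences were -0.0001 and -0.0488. At 48 h the calls were sensitive to single libraries, since 1 gene was called without the untreated 48 h replicate 1 or the treated 48 h replicate 2, and 2 without the untreated 48 h replicate 2 or 3.

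The order of the arms turned between 24 and 48 h for MT-ND6 and MT-ND5. At 24 h MT-ND6 had 1370, 1378 and 1426 TPM in untreated and 1895, 1925 and 1876 TPM in treated cells, with no overlap and a log2 difference of 0.47 ± 0.097 (adjusted p = 0.000485). At 48 h it had 2412, 2624 and 2481 TPM in untreated and 1904, 2403 and 2163 TPM in treated cells, again with no overlap but in the other order, and a log2 difference of -0.19 ± 0.095 (adjusted p = 0.12). MT-ND5 went from 0.39 ± 0.072 (adjusted p = 0.00016) to -0.11 ± 0.071 (adjusted p = 0.24). The change of the arm difference from 24 to 48 h was -0.66 ± 0.14 (adjusted p = 0.0018) for MT-ND6 and -0.50 ± 0.10 (adjusted p = 0.0016) for MT-ND5, and no other mitochondrial-encoded gene passed that test (9.14% of all genes did). From 8 to 24 h no member was called for a changed arm difference by limma voom at adjusted p under 0.01, while 6.7% of all genes were. At the looser threshold of an unadjusted p under 0.05 were 2 of the 13 and 12 of the 39. The neighbours abut without sharing a base and the strand of the reads is not known, so these were not taken as 2 independent observations. Whether reads are shared between them was not tested.

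**Figure D3:**
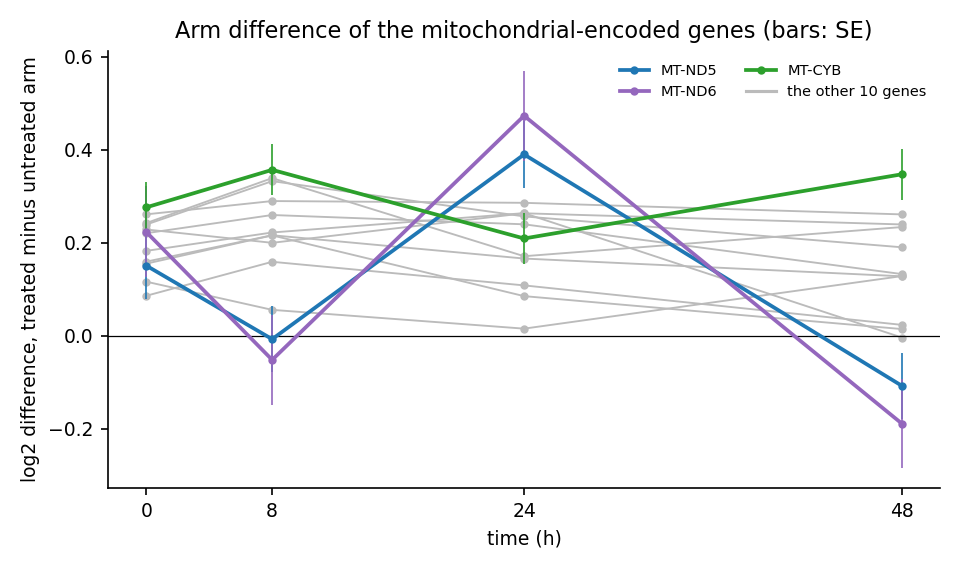
Log2 difference of the treated minus the untreated arm (vertical axis) at 0, 8, 24 and 48 h for each mitochondrial-encoded gene, with MT-ND5, MT-ND6 and MT-CYB coloured and their SE as bars. All 13 lie above 0 at 0 h, and MT-ND5 and MT-ND6 peak at 24 h at 0.39 and 0.47 and are below 0 at 48 h.

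Of the nuclear NDUF genes that changed over 48 h, nearly all fell. From 0 to 48 h, 19 of 39 fell and none rose in untreated cells (median log2 change -0.28), and 27 fell and 1 rose in treated cells (median -0.36). Of all genes, 27.1% and 28.1% fell. In untreated cells the other 20 members did not pass. At 8 h against 0 h, 4 of 39 had fallen in untreated cells (12.7% of all genes), and 8 had fallen and 1 had risen in treated cells (16.3% fell), so these counts were near the share of all genes. At 24 h, 8 were lower and 1 was higher without TGFβ (23.7% of all genes were lower), again near that share, and 17 were lower and 1 was higher with it (22.8% lower). From 24 to 48 h, 11 fell in untreated cells (13.7% of all genes), and 10 fell and 1 rose in treated cells (13.4% fell).

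The core subunits that carry out the chemistry took part in the decrease. Of 6 nuclear core genes, NDUFS1, NDUFS3, NDUFS7, NDUFS8, NDUFV1 and NDUFV2, 5 fell from 0 to 48 h in each arm, and NDUFS7, the subunit of the last iron-sulfur cluster before ubiquinone, did not pass, with changes of -0.35 ± 0.19 and -0.30 ± 0.19. The NDUFB genes, accessory subunits of the membrane arm, fell in 6 of 11 cases without TGFβ and 10 of 11 with it. NDUFS6, a zinc-binding accessory subunit of the matrix arm, had 130, 122 and 108 TPM at 0 h and 81.8, 82.0 and 81.0 TPM at 48 h in untreated cells. In treated cells NDUFS6 had 147, 109 and 137 TPM at 0 h and 77.9, 73.6 and 78.1 TPM at 48 h. It fell by 0.72 ± 0.11 and 0.89 ± 0.11 on the log2 scale, and its arm difference at 48 h was -0.06 ± 0.12.

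The 4 most abundant nuclear members were NDUFS5 (mean 546 TPM over all libraries), NDUFC2 (331 TPM), NDUFB1 (292 TPM) and NDUFB4 (291 TPM), all accessory subunits. NDUFS5 fell by 0.28 ± 0.046 without TGFβ and 0.30 ± 0.046 with it and had arm differences of -0.01 ± 0.046 and 0.01 ± 0.046 at 24 and 48 h. NDUFC2 fell by 0.51 ± 0.097 and 0.50 ± 0.099. NDUFB4 fell by 0.27 ± 0.045 and 0.36 ± 0.045. NDUFB1 fell in treated cells, by 0.24 ± 0.074, and had a change of 0.16 ± 0.072 (adjusted p = 0.053) in untreated cells.

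Between the arms, the nuclear members that differed were mostly lower with TGFβ. The F-test called 16 of 39, 14 of them lower and 2 higher, while 42.6% of all genes were called in either direction, so the number called was near that of all genes. No member was called at 8 h by limma voom at adjusted p under 0.01, while 7.28% of all genes were called lower, and DESeq2 and edgeR called no member either. At the looser threshold of an unadjusted p under 0.05 by limma voom were 5 members. At 24 h, 10 were lower and 1 was higher (13.9% of all genes were lower), and at 48 h 9 were lower and 2 were higher (16.5% lower). The median log2 difference was -0.03, -0.15 and -0.14 at 8, 24 and 48 h. It was -0.02 at 0 h, where none was called and none had an unadjusted p under 0.05. Most other members leaned the same way, with 36 of 39 below 0 at 48 h, where the median log2 difference over all tested genes was -0.013. A fit on the 24 h libraries alone called none at 24 h, and one on the 8 h libraries alone called 4 higher and 4 lower at 8 h. Without the treated 0 h replicate 1, or without replicate 2 of the treated arm at 0 and 24 h, 1 was called at 8 h.

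NDUFA7, an accessory subunit of the matrix arm (chr19:8308768-8321375), had the largest decrease among the called members. At 24 h it had 80.2, 67.9 and 74.7 TPM without TGFβ and 55.2, 41.6 and 49.6 TPM with it. At 48 h it had 72.0, 73.9 and 73.9 TPM without and 46.9, 45.4 and 45.8 TPM with TGFβ, and the arms did not overlap at either time. The log2 difference was -0.59 ± 0.11 (SE; adjusted p = 2.0e-04) at 24 h and -0.65 ± 0.11 (adjusted p = 8.3e-05) at 48 h. Its 0 h difference of -0.18 ± 0.11 was not called, and the change of the difference from 0 to 48 h did not pass either.

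NDUFV2, the core subunit that holds an iron-sulfur cluster beside the NADH-binding site (chr18:9102630-9134345), had 154, 183 and 162 TPM without TGFβ and 165, 184 and 147 TPM with it at 0 h. At 48 h it had 141, 143 and 141 TPM without and 101, 96.2 and 109 TPM with it. The arms overlapped at 0 h and stood apart at 48 h, with a log2 difference of -0.45 ± 0.077 (adjusted p = 6.9e-05). The difference changed from its 0 h value by -0.48 ± 0.11 (adjusted p = 0.0017 by limma voom). The gap was thus larger at 48 h than at the start, in a comparison that crosses file-name codes.

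NDUFB1, a membrane-arm accessory subunit (chr14:92116122-92121917), had 329, 337 and 333 TPM at 48 h without TGFβ and 254, 233 and 255 TPM with it. Its log2 difference was -0.31 ± 0.071 at 24 h and -0.38 ± 0.073 (adjusted p = 0.00024) at 48 h. NDUFA2, a thioredoxin-fold accessory subunit, was lower at 24 h by 0.33 ± 0.089 (adjusted p = 0.0058) on the log2 scale, a call lost when some single libraries were left out, and its 48 h difference of -0.20 ± 0.092 did not pass. Of the same 6 core genes, 2 were lower at 48 h, NDUFV2 and NDUFS1, the latter at -0.19 ± 0.049.

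NDUFB6, a further membrane-arm subunit (chr9:32553001-32573184), was the exception among the classical subunits. It fell over 48 h in both arms, by 0.78 ± 0.039 without TGFβ and by 0.58 ± 0.039 with it. At 48 h it had 43.1, 40.8 and 41.8 TPM without and 48.5, 45.8 and 46.4 TPM with TGFβ, so the treated libraries lay above the untreated ones, with a log2 difference of 0.17 ± 0.040 (adjusted p = 0.0014). This direction held in the fits with library totals and with upper-quartile factors, where it was not called. The remaining members with the highest mean arm differences, NDUFV3, NDUFA11 and NDUFS6, had log2 differences of -0.01, -0.01 and -0.06 at 48 h. At 8 h NDUFV3 had 29.3 to 31.5 TPM without and 32.8 to 34.6 TPM with TGFβ, and NDUFS6 102 to 115 and 118 to 122 TPM. These 2 were the only nuclear members with the treated libraries all above at 8 h, while 21 had them all below, and none was called.

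**Figure D4:**
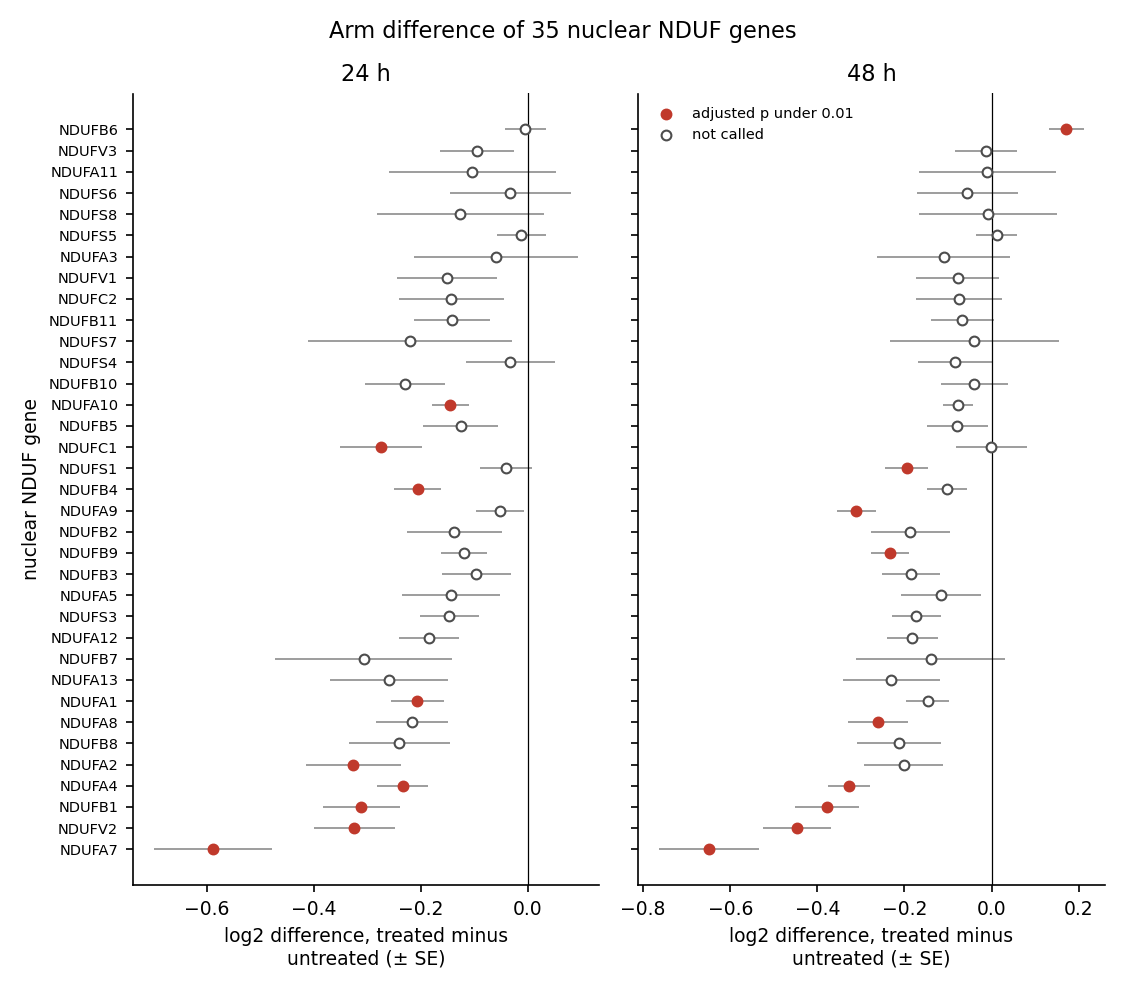
Log2 difference of the treated minus the untreated arm (horizontal axis, with its SE) at 24 h (left) and 48 h (right) for nuclear NDUF genes, ordered by their mean difference over 8, 24 and 48 h. NDUFA7 lies lowest at -0.59 and -0.65, NDUFB6 is the only filled point above 0, and NDUFA4L2, NDUFA6 and NDUFC2-KCTD14, with mean levels of 1.39, 1.27 and 1.33 TPM, are left out.

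Several nuclear members changed their arm difference after 0 h. At 48 h 8 of 39 did so, 6 downward and 2 upward, a share near the 20.7% of all genes. The downward ones included NDUFV2, NDUFB1 and NDUFA4, and also NDUFA9 and NDUFB9, which are named here after their values were seen. NDUFA9, a subunit at the junction of the matrix and membrane arms, had 80.1, 82.1 and 81.6 TPM without and 68.3, 67.0 and 64.8 TPM with TGFβ at 48 h. Its log2 difference of -0.31 ± 0.045 (adjusted p = 8.5e-06) at 48 h compared with -0.05 ± 0.045 at 24 h, and the change between those times, -0.26 ± 0.064, passed the test (adjusted p = 0.0076). The upward ones were NDUFB6 and NDUFA4L2.

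The pattern of names also takes in genes that are not classical subunits of complex I. NDUFA4 (chr7:10931943-10940153) is now assigned to cytochrome c oxidase. It had 208, 204 and 212 TPM at 48 h without TGFβ and 184, 180 and 191 TPM with it, and fell over 48 h by 0.34 ± 0.047 and 0.63 ± 0.048. The arm difference was -0.23 ± 0.047 at 24 h and -0.33 ± 0.048 (adjusted p = 9.5e-06) at 48 h, in the direction of the other nuclear genes.

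Its paralogue NDUFA4L2 (chr12:57234903-57240715), known as a target of hypoxia-inducible factor, moved in the opposite direction at a level near 1 TPM. It had 0.69, 0.94 and 0.43 TPM without TGFβ and 1.01, 0.15 and 0.46 TPM with it at 0 h, where the arms overlapped. At 24 h the untreated libraries held 1.32, 1.76 and 1.32 TPM and the treated ones 2.70, 1.38 and 3.37 TPM, so replicate 2 of the treated arm overlapped the untreated range. At 48 h the values were 0.85, 0.42 and 0.39 TPM without and 2.93, 2.85 and 3.52 TPM with TGFβ, and the arms stood apart. The log2 difference was 1.64 ± 0.31 (adjusted p = 0.00021) at 24 h and 2.29 ± 0.36 (adjusted p = 2.5e-05) at 48 h. The lowest library held 5 counts of NDUFA4L2, so its values carry more counting error than those of the other members.

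A few members could not be read well. NDUFA6 and NDUFA3, both accessory subunits, were measured at mean levels of 1.27 and 12.6 TPM, below NDUFV3 as the next lowest classical subunit at 27.35 TPM, with as few as 3 and 78 counts in a library. No gene could be assigned to 17741 transcripts, and whether transcripts of NDUFA6 and NDUFA3 are among them was not tested. NDUFA6 had a log2 difference of -1.72 ± 0.66 (adjusted p = 0.043) at 24 h and -0.18 ± 0.70 at 48 h. The readthrough gene NDUFC2-KCTD14 ranged from 0 to 5.87 TPM and its log2 difference of 3.98 at 24 h had an SE of 2.4. Among the mitochondrial-encoded genes, nuclear pseudogene copies held 9.81% of the joint TPM for MT-ATP6 and 2.44% for MT-ND1, and adding them changed no count of calls by more than 1.5 times.

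**Figure D5:**
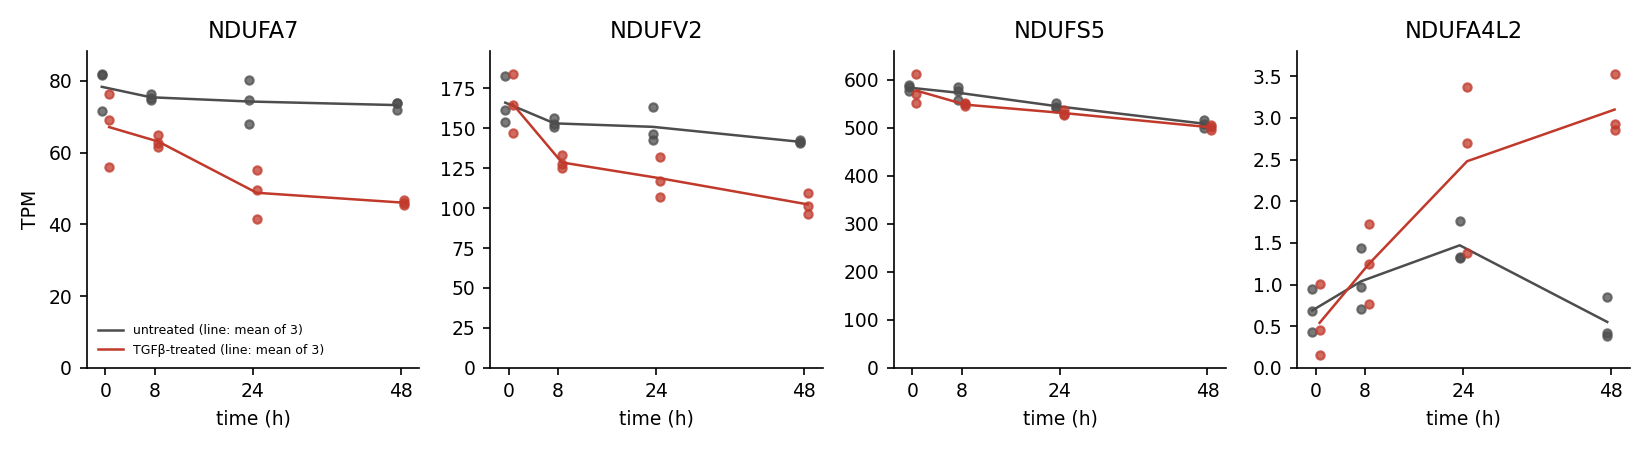
TPM of NDUFA7, NDUFV2, NDUFS5 and NDUFA4L2 in each library against time in hours, with lines through the means of 3. NDUFA7 and NDUFV2 lie lower in treated cells at 48 h (45.4 to 46.9 and 96.2 to 109 TPM), NDUFS5 falls by 0.28 and 0.30 on the log2 scale, and NDUFA4L2 reaches 2.85 to 3.52 TPM in treated cells at 48 h.

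Promoters of the nuclear members were searched for short motifs in windows from 250 bases before to 50 bases after the annotated start (RefSeq, GRCh38.p14), which were at hand for 32 of the 39 genes. The NRF1 motif GCATGCGC, bound by nuclear respiratory factor 1, an activator of respiratory chain genes, occurred on either strand in 6 of 32 member genes (18.8%) and in 3.68% of all 27305 genes with a window, where a gene with several windows counts once. The ETS motif CCGGAAG, bound by GABP, occurred in 15.6% and 12.16%, the E-box CACGTG in 9.4% and 8.77%, and the SMAD motif CAGAC in 53.1% and 49.99%. The genes with the NRF1 motif were NDUFA5, NDUFA6, NDUFA8, NDUFB4, NDUFS6 and NDUFS7. A match is a description of letters only. The promoters of NDUFB4 and NDUFS6 are shown with the motif in capitals and 20 bases on each side, since NDUFS6 fell over time and NDUFB4 is among the most abundant members.
NDUFB4, chr3:120596157-120596206, plus strand: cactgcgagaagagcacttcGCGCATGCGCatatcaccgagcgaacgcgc
NDUFS6, chr5:1801341-1801388, plus strand: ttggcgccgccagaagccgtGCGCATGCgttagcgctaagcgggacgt
In NDUFB4 the motif lies on both strands, overlapping itself, and starts 159 bases before the annotated start, and in NDUFS6 it starts 46 bases before it.

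In the lists of the other complexes, the genes that changed with time fell. From 0 to 48 h in treated cells 16 of 18 nuclear genes of complex V fell, 8 of the 12 tested of complex IV, 7 of 9 of complex III, 4 of 8 of complex II and 12 of 20 complex I assembly factors, and none of these lists had a gene that rose. In untreated cells the counts were 16, 6, 6, 2 and 10. Of all genes 28.1% fell in treated and 27.1% in untreated cells, so the untreated count of complex II was near that share. Between the arms at 48 h, 8 of 18, 5 of 12, 3 of 9, 4 of 8 and 7 of 20 were lower with TGFβ (16.5% of all genes), and 1 assembly factor was higher. The median log2 differences at 48 h were -0.19, -0.23, -0.19, -0.27 and -0.21, compared with -0.14 for the NDUF genes. ATP5MC1, a subunit of the rotor ring, differed by -0.52 at 48 h, COX7A2 of complex IV by -0.39, CYC1 (cytochrome c1) by -0.46 and SDHA (the flavoprotein of complex II) by -0.31. The higher one was ECSIT, an assembly factor, at 0.52 (adjusted p = 0.0026), while NDUFAB1 was lower at -0.43. NDUFAB1, the mitochondrial acyl carrier protein, is itself a subunit of complex I, which the pattern of names left out of the 39 and which is counted in the assembly list.

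Most called genes of the machinery that transcribes and translates the mitochondrial genome fell with time. Of 78 mitochondrial ribosomal protein genes, 64 fell and none rose from 0 to 48 h in treated cells, and 48 fell and 1, MRPS6, rose in untreated cells (0.97). For these lists the shares of all genes are 28.1% falling and 29.9% rising in treated cells, and 27.1% and 28.1% in untreated cells. Between the arms at 48 h 24 of 78 were lower (16.5% of all genes) and none higher, led by MRPS6 at -0.85. Of 10 mitochondrial transcription genes, 7 fell in treated and 4 in untreated cells, and 1, MTERF4, rose in untreated cells. TFAM, which packages mitochondrial DNA and starts its transcription, fell by 0.36 and 0.43, and POLRMT, the mitochondrial RNA polymerase, had changes of 0.28 (adjusted p = 0.16) and 0.38 (adjusted p = 0.052). Of 19 genes of mitochondrial RNA processing and stability, 13 fell in treated and 7 in untreated cells. LRPPRC, which stabilises mitochondrial mRNAs, changed by -0.61 with TGFβ and by -0.17 (adjusted p = 0.052) without it. In the list on mitochondrial DNA replication 3 of 12 rose in each arm, near the share of all genes, while 7 fell without and 6 with TGFβ, and among those that rose was TK2, a mitochondrial thymidine kinase, at 0.60 and 1.23.

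Regulators of mitochondrial genes in the nucleus that differed between the arms were mostly lower with TGFβ. At 48 h, 5 of 11 were lower with TGFβ and 1 was higher (16.5% and 16.2% of all genes). PPARGC1A, a coactivator of mitochondrial biogenesis, had a mean of 1.29 TPM and was lower by 2.52 on the log2 scale at 48 h. It had risen by 2.68 over 48 h in untreated cells, with a change of -0.04 (adjusted p = 0.81) in treated cells. The hypoxia-inducible factors HIF1A and EPAS1 differed by -1.18 and -1.79 at 48 h. They had risen by 1.35 and 2.12 in untreated cells, and in treated cells EPAS1 rose by 0.39 while HIF1A had a change of 0.15 (adjusted p = 0.042). MYC was lower at -0.54 and ESRRA at -0.42, and YY1 was higher at 0.25. NRF1 itself had differences of 0.11 (adjusted p = 0.18) at 24 h and 0.10 (adjusted p = 0.24) at 48 h, and GABPA had 0.16 and 0.23, none of which passed.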

How the data were processed

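The authors quantified RNA-seq libraries of SK-MES1 cells with kallisto 0.43.0 on GRCh38 transcripts (Ensembl release 79) and deposited, for each of the 24 libraries, estimated counts and TPM per transcript. The library kit and its strandedness are not given in the sources used here. Transcripts were matched by Ensembl ID to GENCODE release 44 (155518 matched and 17741 did not), and estimated counts and TPM were summed per gene and counts rounded. Genes with at least 10 counts in 3 libraries were tested with limma 3.58.1 voom and edgeR 4.0.16 TMM factors in R 4.3.3, with 1 mean for each of 8 groups, contrasts between arms and times, an F-test over 8, 24 and 48 h, and Benjamini-Hochberg adjustment over all 17413 genes at 0.01. DESeq2 1.42.0, edgeR, other factors, filters, blocks and left-out libraries were alternatives. The fit was tested on simulated data. Figures used matplotlib, and levels pandas.

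Named were all mitochondrial-encoded genes, and of the nuclear ones the 6 highest and 6 lowest mean arm differences, the 4 highest TPM and the paralogue and readthrough genes, and in other lists the called extremes. Members and lists were chosen with earlier results of these data known. The replicate numbers were not taken as pairs in the main fit: the correlation of deviations of same-numbered libraries ranged from -0.062 to 0.255. It was above 0 for every number at 0 h (at least 0.063) and at 24 h (at least 0.073), so a pairing at those times is possible. The values of 1 nuclear member are not reported here singly, though counts and sums over members include it, except those over core subunits.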

Additional observations from a re-analysis of the deposited data

Results flagged for a closer look

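The arm difference of several members changed between time points in the test of that change itself (limma voom, adjusted p under 0.01). Between 24 and 48 h the log2 change of the difference was -0.66 for MT-ND6, -0.50 for MT-ND5 and -0.26 for NDUFA9. Between 0 and 24 h it was 2.11 for NDUFA4L2. Between 0 and 48 h it was 2.76 for NDUFA4L2, 0.20 for NDUFB6, -0.48 for NDUFV2, -0.40 for NDUFB1, -0.29 for NDUFA9, -0.29 for NDUFA4 and -0.27 for NDUFB9. Of all genes, 9.14% changed between 24 and 48 h, 16.6% between 0 and 24 h and 20.7% between 0 and 48 h, and over all members the shares called were below those. The comparisons share the 24 h, 48 h or 0 h libraries.

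Nuclear pseudogenes of mitochondrial genes, which are no members and were used above only as an addition to the mitochondrial-encoded genes, were measured on chromosome 1. MTATP6P1 (chr1:633696-634376) had a mean of 1007 TPM and ranged from 720 to 1325 TPM, MTND1P23 (chr1:629062-629433) had a mean of 95.3 TPM, and MTND2P28 (chr1:629640-630683) had a mean of 52.0 TPM. These copies are nearly identical to mitochondrial DNA, so reads can be shared between a copy and its mitochondrial gene.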

How the results depend on the processing

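Of the 108 calls on single members, none changed direction with another tool, scaling, filter, block or set of libraries, and 33 were lost when some single library was left out. DESeq2 lost none. As a change from 0 h, 4 of the 39 called arm differences had the other sign, MT-CYB at 24 h (-0.07) and MT-ND4 (-0.05), MT-ND1 (-0.0084) and MT-ATP6 (-0.0001) at 48 h. The number called moved by more than 1.5 times as follows, and the cause was not tested unless the construction shows it. With library totals in place of TMM factors the mitochondrial-encoded calls were 3 at 24 h and 1 at 48 h, and the nuclear calls 25 in the F-test, 5 at 8 h and 20 at 24 h, while the median of all genes shifted to -0.11 at 24 h. Mitochondrial-encoded calls at 48 h were 2 with upper-quartile factors, with a minimum of 50 counts, and with limma-trend on log2 TPM with a pseudocount of 1 or 0.1, and nuclear calls at 8 h were 1 with upper-quartile factors and 2 with either limma-trend fit. With only the libraries of the contrast, nuclear calls were 8, 0 and 19 at 8, 24 and 48 h, mitochondrial-encoded calls were 8 at 48 h, 6 for the treated arm over 48 h and 3 for untreated 24 h against 8 h. Measured as a change from 0 h, mitochondrial-encoded calls were 2 in the F-test, both lower, and 0 at 8, 24 and 48 h, nuclear calls were 7 in the F-test and 2 at 24 h, and the ratio differences were 0.0451, 0.1813 and 0.0619.

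The replicate block changed no count by more than 1.5 times (11 mitochondrial-encoded and 17 nuclear calls in the F-test). A replicate block within each time point gave 10 and 7 mitochondrial-encoded calls at 8 and 48 h and 3, 21 and 19 nuclear calls at 8, 24 and 48 h. Same-numbered libraries had correlations of deviations of at least 0.063 at 0 h and 0.073 at 24 h, but from -0.062 at 8 h and -0.018 at 48 h. The numbers were not taken as pairs in the main fit, which leaves out a possible pairing at 0 and 24 h.

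Leaving out single libraries, mitochondrial-encoded calls ranged from 1 to 5 at 48 h and from 7 to 11 for the treated arm over 48 h, and nuclear calls from 0 to 1 at 8 h. Without replicate 2 of the treated arm at 0 and 24 h, an alternative chosen after seeing the data, as was leaving out libraries from the ratio measured as a change from 0 h, nuclear calls were 1 at 8 h. The rise of the log2 ratio over 48 h was 0.8288 from CPM in untreated cells, 0.6986 from mean log2 values in treated cells, and 0.5938 and 0.6666 with only the MT-ND genes. Depth limits NDUFA4L2, NDUFA6 and NDUFC2-KCTD14, at about 1 TPM.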
